A study of Arabidopsis thaliana with 6 samples.

Results

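Signals of 4 alpha-expansin genes, EXPA7, EXPA18, EXPA8 and EXPA15, were read on 6 arrays of whole Arabidopsis thaliana seedlings. They were chosen by name, with earlier results of these data known. Each had 1 probe set annotated to it alone, among 22746 probe sets in all. The titles of the arrays were wat, zer, glc, OMG, DOG and man, 1 array per group, so no value has a replicate. The seedlings (accession Col-0, growth stage 1.02) had been grown under constant light at 23 °C on agar medium (0.8% agar) after a cold period of 72 h at 4 °C. These conditions were shared by all 6 groups. The treatment field of the labels holds none for every array, so the groups rest on the titles alone, and the labels state no dose, no time and no number of seedlings behind an array. The series title asks about genes that respond to non-metabolised analogs of glucose. From it, glc was taken to be glucose, and OMG and DOG 2 such analogs. The names zer, wat and man are kept as written, since the labels do not spell them out.

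Expansins are proteins of the plant cell wall that let cellulose and its coating polysaccharides slip past each other, most readily when the wall is acid, so that a cell under turgor can extend. Alpha-expansins (EXPA) form the largest branch of the superfamily, beside beta-expansins (EXPB) and the expansin-like EXLA and EXLB genes. EXPA7 and EXPA18 are known from root hairs, the tubular outgrowths of the root surface, and EXPA15 has been studied in meristems and growing roots.

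The values are probe set signals on a linear intensity scale, which the submitters had scaled to a common mean per array. The median signal of an array lay between 40.2 (OMG) and 43.2 (zer). The 40th percentile of each array, between 26.1 (OMG) and 28.8 (zer), served as a floor below which signals were not told apart. A comparison of 2 arrays used the probe sets at or above the median on at least 1 of them. Differences are given as log2 of floored signals and as folds, and a 2-fold difference was the size at which probe sets were counted. No test, p-value or standard error can be had from 1 array per group. For a control gene, signal at the 3' end over that at the 5' end grows as the labelled RNA becomes less complete. In an actin control pair this ratio was 7.48 in zer and 6.41 in glc and from 3.46 (DOG) to 4.66 (wat) on the others. Another actin pair differed less, at 1.86 in zer, 1.76 in glc and from 1.55 (DOG) to 1.72 (man) on the others.

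The 4 genes did not share a pattern. EXPA8 stood out in zer, EXPA15 was lowest in man and intermediate in OMG and DOG, and the root hair pair EXPA7 and EXPA18 read near or below the array median, with EXPA7 close to the floor in OMG. Over the 6 arrays, 1058 of 12723 probe sets (8.32%) had a highest signal at least 2-fold above the lowest, and EXPA8 and EXPA15 were among them. The highest over the lowest signal was 3.08-fold for EXPA8, 2.24-fold for EXPA15, 1.62-fold for EXPA7 and 1.30-fold for EXPA18. The median span of all 12723 probe sets was 0.51 on the log2 scale, above the 0.38 of EXPA18 and below the 0.70 of EXPA7, the 1.16 of EXPA15 and the 1.62 of EXPA8.

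**Figure D1:**
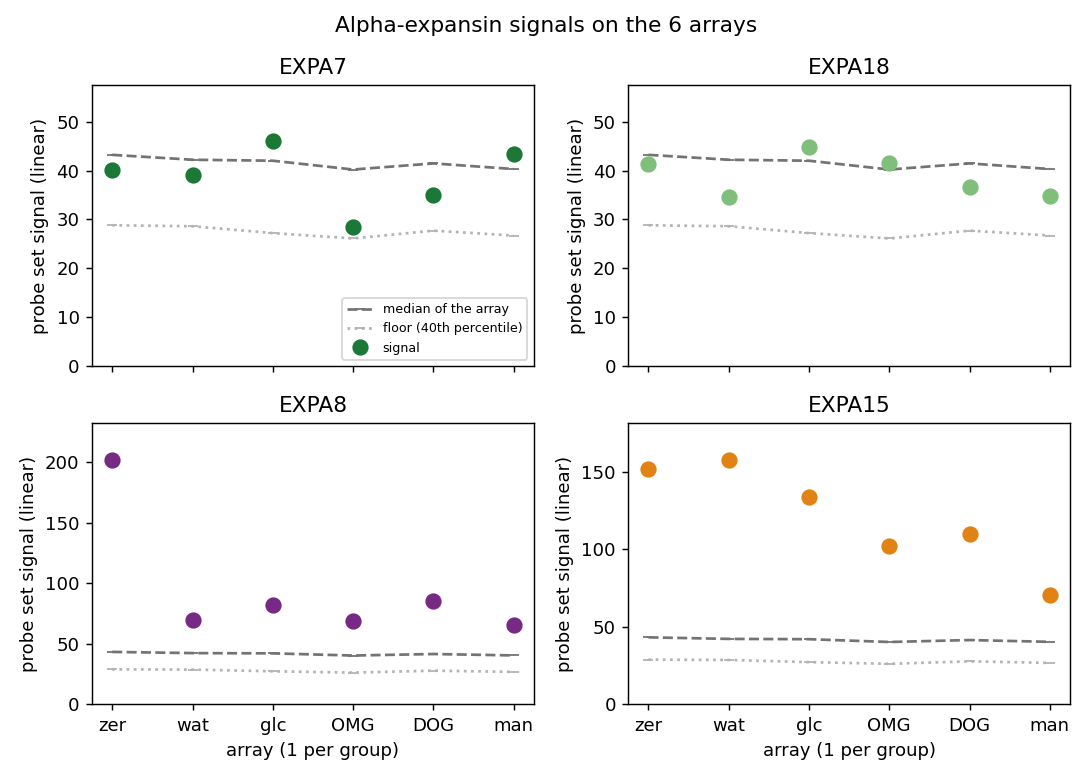
Signal of EXPA7, EXPA18, EXPA8 and EXPA15 (linear y axis from 0, a scale for each panel) on the 6 arrays; points are single arrays, the dashed line is the median and the dotted line the floor of each array. EXPA8 reads 201.8 in zer and at most 85.3 elsewhere, EXPA15 runs from 157.9 in wat to 70.6 in man, and EXPA7 and EXPA18 lie near the median except for EXPA7 in OMG, at 28.4 beside a floor of 26.1.

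**Figure D2:**
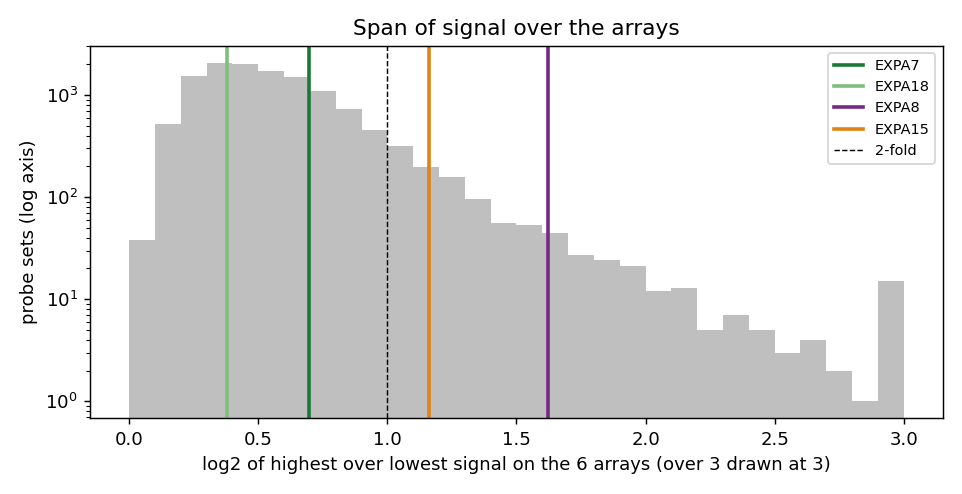
Number of probe sets (log y axis) by the log2 ratio of their highest to lowest floored signal over the 6 arrays, for the 12723 probe sets at or above the median on at least 1 array. Coloured lines mark EXPA18 at 0.38, EXPA7 at 0.70, EXPA15 at 1.16 and EXPA8 at 1.62, and the dashed line marks 2-fold.

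EXPA8 (locus AT2G40610) read 201.8 in zer, 85.3 in DOG, 82.0 in glc, 69.5 in wat, 68.5 in OMG and 65.5 in man. All 6 signals were above the array median, and zer stood apart from the other 5 arrays. The signal in zer was 2.90-fold that in wat (log2 difference 1.54), the 15th largest increase of 12027 probe sets compared. Of those probe sets, 0.856% were at least 2-fold higher in zer than in wat. EXPA8 was 2.46-fold higher in zer than in glc, where 1.03% of probe sets were at least 2-fold higher in zer. It was 2.95-fold higher than in OMG, beside 0.952% of probe sets, and 2.37-fold higher than in DOG, beside 0.892%. Against man the difference was 3.08-fold, beside 1.66%. These comparisons share the zer array, so a single high reading there would give all of them. Across the series, 31 of 12723 probe sets (0.244%) were at least 2-fold higher in zer than on each of the other arrays, a count taken after the values of EXPA8 were seen.

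Without zer, EXPA8 spanned 0.38 on the log2 scale, from man to DOG. Its log2 difference from wat was 0.24 in glc, 0.30 in DOG, -0.02 in OMG and -0.09 in man, so only DOG went past the standard deviation of the log2 differences of all probe sets in its own comparison (0.246 for DOG). Both actin ratios were highest in zer, the array with the high EXPA8 signal. A GAPDH control pair gave 1.38 in zer, 1.26 in glc and 1.21 to 1.36 on the others, also highest in zer but by a small margin. The part of RNA completeness in the zer reading of EXPA8 was not tested.

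EXPA15 (locus AT2G03090) read 157.9 in wat, 151.9 in zer, 133.6 in glc, 110.0 in DOG, 102.0 in OMG and 70.6 in man. Every signal was above the array median. The wat and zer arrays were high and nearly equal, glc came next, the analog arrays lay lower and close to each other, and man was the lowest. EXPA15 was 2.24-fold lower in man than in wat (log2 difference -1.16), the third largest decrease of 11910 probe sets, of which 0.16% were at least 2-fold lower in man. With the median of the other 4 arrays in place of wat, the log2 difference was -0.78, under 2-fold, and without man the span of EXPA15 was 0.63. The man signal was 2.15-fold lower than that of zer, where 1.66% of probe sets were at least 2-fold lower. Over all arrays, 286 of 12723 probe sets (2.25%) spanned at least 2-fold and had their lowest signal in man.

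The analog arrays read less EXPA15 than wat as well. In OMG it was 1.55-fold lower (log2 difference -0.63), and 2.06% of 11910 probe sets were at least 1.5-fold lower in that comparison. In DOG it was 1.44-fold lower (-0.52), short of the 1.5-fold that 1.51% of 11887 probe sets reached in the lower direction. Both comparisons use the same wat array, as does man against wat, so a high wat reading would lower all 3. The signal in zer was 1.49-fold above OMG, the 699th largest increase of 11969, and 1.38-fold above DOG, the 1051st of 11998. These use the same OMG and DOG arrays again, and the part of a single array in the differences was not tested. In glc EXPA15 was 1.18-fold lower than in wat (-0.24), less than the standard deviation of all log2 differences in that comparison (0.417). It read 1.31-fold higher in glc than in OMG, 1.22-fold higher than in DOG and 1.89-fold higher than in man. OMG and DOG differed from each other by 0.11 on the log2 scale for EXPA15. The man signal of EXPA15 lay 1.44-fold under that of OMG and 1.56-fold under that of DOG.

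EXPA7 (locus AT1G12560) read 46.0 in glc, 43.4 in man, 40.1 in zer, 39.0 in wat, 35.0 in DOG and 28.4 in OMG. It reached the array median in glc and man, and the OMG signal was just above the floor of 26.1. The lowest and the highest array differed by 1.62-fold, between OMG and glc (log2 difference 0.70, 474th largest of 11997). Without OMG the span was 0.39. EXPA7 was 1.53-fold higher in man than in OMG, and its difference between glc and wat was 0.24. Against wat it was under the median on both arrays in zer, OMG and DOG, so it was not ranked or counted there; its log2 differences were 0.04, -0.46 and -0.16.

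EXPA18 (locus AT1G62980) read 44.9 in glc, 41.6 in OMG, 41.3 in zer, 36.7 in DOG, 34.7 in man and 34.5 in wat. It reached the median in glc and OMG. The lowest and the highest array were 1.30-fold apart, and 70.5% of the 12723 probe sets spanned at least as much. Its log2 difference from wat was 0.38 in glc and 0.27 in OMG, beside standard deviations of 0.417 and 0.244 over all probe sets compared. For EXPA18 the neighbouring arrays in this order (OMG and zer, man and wat) differed by 0.01 on the log2 scale.

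Although EXPA7 and EXPA18 are both known from root hairs, their signals ran in different orders over the arrays. OMG gave the lowest reading of EXPA7 and the second highest of EXPA18, and glc gave the highest of both. Over the 6 arrays, which differ in condition and share no replicate, the Pearson correlation of their log2 signals was -0.03 and the Spearman correlation 0.14. The other 5 pairs among the 4 genes had Pearson values from 0.10 (EXPA7 and EXPA15) to 0.50 (EXPA8 and EXPA15). These are descriptions over 6 points at low signal for the root hair pair.

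**Figure D3:**
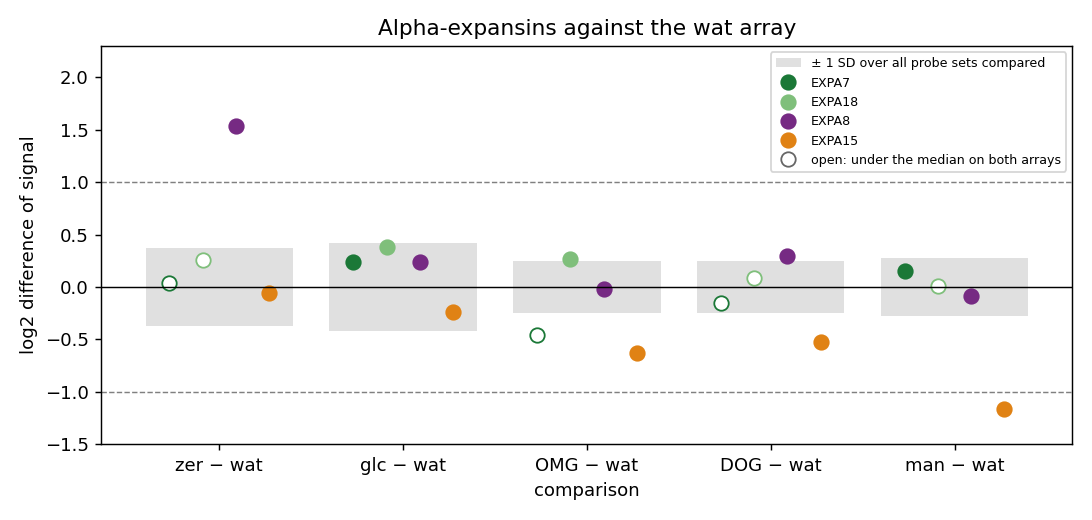
Log2 difference of signal from the wat array for each gene in zer, glc, OMG, DOG and man; open points were under the median on both arrays, grey bands are ± 1 SD of all probe sets compared and dashed lines mark 2-fold. EXPA8 in zer (1.54) and EXPA15 in man (-1.16) lie past 2-fold, and EXPA15 in OMG (-0.63) and DOG (-0.52) lies outside the band. Also outside it are EXPA7 (-0.46, open) and EXPA18 (0.27) in OMG, and EXPA8 (0.30) in DOG.

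Set against wat, 1 of the 4 genes was at least 2-fold apart in zer, where 1.68% of probe sets were, and 1 in man, where 0.403% were. In glc 0 of 4 were, beside 2.42% of probe sets, and 0 of 4 were at least 1.5-fold apart, beside 12.9%. In OMG and DOG 0 of 4 were 2-fold apart, beside 0.151% and 0.219%. As the genes were chosen with earlier results of these data known, these counts describe them and test nothing. Not every gene could be compared each time: 4 of 4 passed the filter on low signal in glc, 3 in OMG and man, and 2 in zer and DOG. Their median log2 difference from wat, over all 4, was 0.15 in zer, 0.24 in glc, -0.24 in OMG, -0.03 in DOG and -0.04 in man, while the median over all probe sets compared lay between -0.02 (man) and 0.02 (glc). In glc the positive median came from EXPA7, EXPA8 and EXPA18, which read higher than in wat by 0.24, 0.24 and 0.38, with EXPA15 lower by 1.18-fold.

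The glucose array was also read directly against the analogs. All 4 genes read higher in glc than in OMG, by 0.11 (EXPA18) to 0.70 (EXPA7) on the log2 scale, with a median of 0.32 beside 0.03 for all 11997 probe sets. Against DOG, 3 of 4 were higher and EXPA8 was 1.04-fold lower, with a median of 0.29 beside 0.03. These differences were under 2-fold, and the standard deviation of all log2 differences was 0.417 against OMG and 0.418 against DOG. Only EXPA7 against OMG went past it, from an OMG signal of 28.4 beside a floor of 26.1. Among 11997 probe sets, EXPA15 had the 1917th largest increase from OMG to glc, EXPA8 the 3111th and EXPA18 the 4932nd. The share of all probe sets that read higher in glc was not counted, but their median was above 0 in both comparisons. All 4 genes were read on the same arrays, so the number that read higher describes them and tests nothing. Between the analog arrays themselves, EXPA8 was 1.25-fold higher in DOG than in OMG, EXPA15 1.08-fold higher and EXPA18 1.13-fold lower. EXPA7 read 35.0 in DOG and 28.4 in OMG, under the median on both. Without a second array no interval can be set on these differences, and their size does not show that OMG and DOG act alike.

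Of 32 other expansin genes looked for, 14 had a probe set annotated to them alone. The 7 with a signal at or above the median on at least 1 array were EXPA4, EXPA9, EXPB1, EXPB3, EXLA1, EXLA2 and EXLB1. The others (EXPA16, EXPA20, EXPA21, EXPA24, EXPB2, EXPB5 and EXLA3) were under the floor on every array. Another 2 probe sets, each annotated to 2 alpha-expansin genes, read from 0.4 to 7.8, under the floor on every array.

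The beta-expansin EXPB3 was highest in zer, as EXPA8 was. EXPB3 read 124.8 in zer, 78.9 in glc, 74.8 in OMG, 71.1 in wat, 65.3 in DOG and 39.6 in man. It was 1.76-fold higher in zer than in wat and 1.80-fold lower in man than in wat, so it was highest in zer and lowest in man. EXPA8 was also highest in zer, but its man signal (65.5) was close to those of OMG (68.5) and wat (69.5). EXPA15 shared the low in man. EXPB1 read 46.3 in zer, at least 1.62-fold above wat, and was under the floor on the other 5 arrays. It passed the filter on low signal through zer alone, so its high there adds nothing to that of EXPA8. EXPA4 read 77.4 in zer and 49.0 in man, again the highest and the lowest array, with the others from 61.2 (wat) to 71.5 (glc). EXPA9 read 36.2 in wat and from 47.0 to 49.5 on the other 5 arrays. Being highest in zer and lowest in man was not particular to expansins. Among the wall and organ genes read from lists, XTH16, COB and PYK10 were so too, while others above the floor were not. PME35 also had this order, but it was under the floor in man and under the median on every array. The share over all probe sets was not counted. The span was small for XTH16 (1.327-fold) and PYK10 (1.255-fold).

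The expansin-like genes ran differently. EXLA1 read 386.9 in DOG, 276.3 in OMG, 262.6 in man, 228.6 in wat, 200.4 in zer and 147.4 in glc, and it was 2.63-fold higher in DOG than in glc. EXLA2 read 45.1 in DOG, 39.6 in OMG and 35.9 in zer, and from 28.7 to 29.8 in wat, glc and man. It was at or above the median in DOG alone, so it was included through its highest array. EXLB1 ranged from 60.8 in glc to 86.3 in DOG. DOG was the highest array for all 3, as it was by a small margin for EXPA9 (49.5, beside 48.6 in zer), and it was not the highest for any of EXPA7, EXPA18, EXPA8 and EXPA15. Against wat, 0 of these 7 other expansins were counted as 2-fold apart, although the 1.62-fold of EXPB1 in zer is a lower bound that does not place it under 2-fold.

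**Figure D4:**
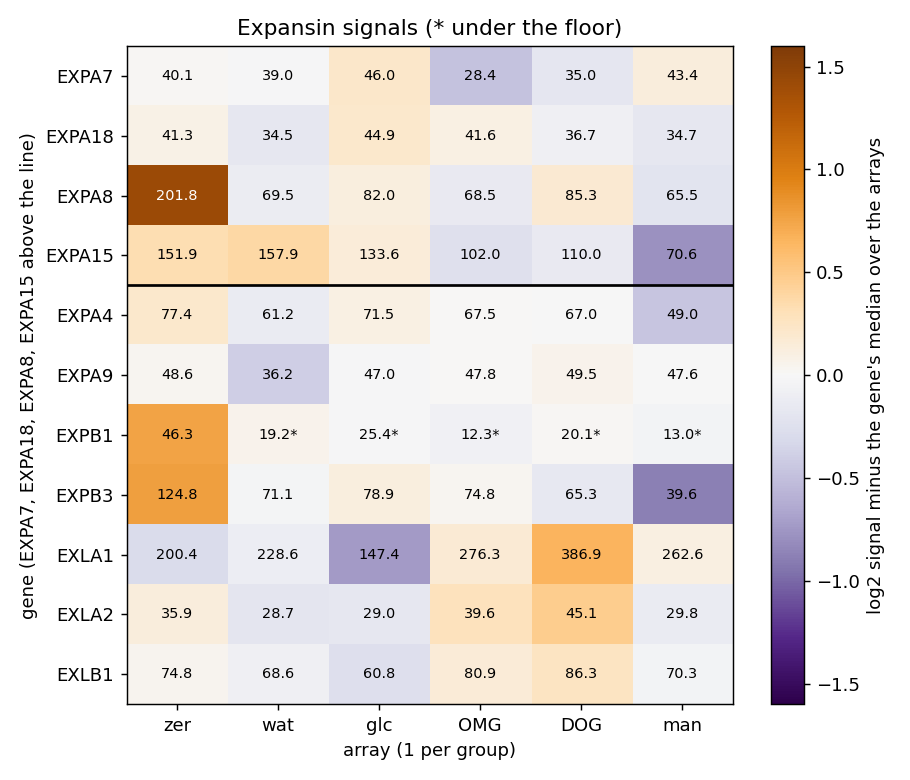
Signals of the 4 genes (above the line) and of the other expansins at or above the median on at least 1 array, printed in each cell, with an asterisk under the floor; colour is the log2 floored signal minus the gene's median over the 6 arrays. EXPA8, EXPA4, EXPB1 and EXPB3 are highest in zer, and EXPA9, EXLA1, EXLA2 and EXLB1 highest in DOG. EXPA15, EXPA4 and EXPB3 are lowest in man, as is EXPA8 by a small margin.

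Other genes of the wall and markers of the seedling's organs were read from lists. Of 33 XTH genes, which encode enzymes that cut and rejoin xyloglucan, 10 were measured and 5 were at or above the median on an array. XTH18 read from 75.8 in zer to 578.9 in DOG, and XTH32 from 156.9 in man to 269.3 in glc. XTH19 read 82.1 in glc and 75.6 in zer, and was under the floor in wat at 25.3. XTH20 stayed under the median on every array, at 16.8 to 41.7. In the pectin list, 4 of 19 genes were measured; the methylesterase gene ATPMEPCRB read 143.9 in glc and from 58.1 to 88.7 elsewhere. ATPMEPCRF ranged from 81.5 in man to 126.3 in OMG, PME35 from 25.7 in man to 41.8 in zer, and ATPMEPCRD was under the floor throughout. In the cellulose list, 2 of 17 were measured: COB, a membrane-anchored protein needed for oriented cell expansion, read 355.9 in zer and 218.6 in man, and CSLD2, a cellulose synthase-like gene, ranged from 141.5 in zer to 185.6 in man.

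The root hair label could be checked against few genes. Of 28 other root hair genes, 2 had a probe set annotated to them alone. XTH26, a root hair xyloglucan enzyme gene, read 1.1 to 2.8, under the floor on all 6 arrays. SCN1, a regulator of where hairs emerge that is not confined to them, read from 228.4 in glc to 268.1 in man. Root tissue was represented, since PYK10, a beta-glucosidase gene of roots and hypocotyls, read from 2637.8 in man to 3311.3 in zer. The green tissue genes RCA, for Rubisco activase, and LHCB4.2, for a light-harvesting protein, read from 2776.9 (wat) to 3309.7 (zer) and from 1489.7 (glc) to 2256.2 (zer). PYK10, RCA and LHCB4.2 were thus all highest in zer, by 1.19-fold, 1.19-fold and 1.26-fold over wat, beside the 2.90-fold of EXPA8. In whole seedlings, fewer cells of a type and less RNA per cell cannot be told apart. No probe set annotated alone to any of the 4 non-hair epidermis genes, the 32 growth hormone and elongation genes or the 11 proton pump genes was found. The search went by gene name, and 8730 probe sets are unnamed here. Genes not found, root hair genes included, may therefore still be on the array.

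Probe sets with a like pattern were sought among 2727 that had 1 gene, a signal at or above the median and a span of at least 1.5-fold. The measure was the Pearson correlation of log2 signals over the 6 arrays. A correlation of 0.9 or more was reached by 101 candidates (3.71%) with EXPA8, 47 (1.72%) with EXPA18, 28 (1.03%) with EXPA15 and 15 (0.55%) with EXPA7.

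For EXPA15 the 4 closest were AT4G02800 (0.995), AT1G08220 (0.986), AT4G29020 (0.983) and AT3G47980 (0.982). AT4G02800 read 56.0 in wat, 50.8 in zer, 47.3 in glc, 37.7 in DOG, 36.3 in OMG and 19.7 in man, the same order of arrays as EXPA15. Its man signal was under the floor of 26.7 and was raised to it for the correlation. AT4G29020 read much higher signals, from 1253.5 in zer to 798.5 in man, with OMG and DOG between them at 1037.3 and 1022.6. Leaving out man, the array farthest from the median of EXPA15, the 4 correlations were from 0.944 to 0.990. As the 4 were chosen on the remaining arrays too, this is no separate check of their likeness.

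For EXPA8 the 4 closest were AT5G16730 (0.997), AT4G33490 (0.992), AT4G24130 (0.992) and AT5G03120 (0.987). The wat signal of AT5G16730 (20.9) was under the floor of 28.6 and was raised to it. AT4G24130 read 70.0 in zer and from 29.5 to 36.4 on the other arrays, and AT4G33490 read 81.6 in zer and at most 45.8 elsewhere. AT5G16730 and AT4G24130 were at or above the median in zer alone. They became candidates only through the array where EXPA8 was high, so a high zer signal was built into their choice. Leaving out zer, the array farthest from the median of EXPA8, the correlations were from 0.861 to 0.954.

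For EXPA7 the closest were AT3G28270 (0.979), AT5G53110 (0.975), AT1G65080 (0.974) and AT1G13830 (0.956). AT3G28270 read 155.1 in man, 150.4 in glc and 98.0 in OMG, the last being its lowest as it was for EXPA7. For EXPA18 they were AT2G38730 (0.969), AT4G19610 (0.966), AT2G16660 (0.957) and AT4G16660 (0.957). The wat signal of AT4G19610 (28.0) was just under the floor of 28.6. AT4G19610 was at or above the median in glc alone, the highest array of EXPA18, so it became a candidate only through that array. AT2G38730 read 117.8 in glc, 108.6 in zer and 69.6 in wat, its highest and lowest arrays being those of EXPA18.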

How the data were processed

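The deposited table holds linear intensity values of probe sets for 6 arrays, which the authors computed with MAS5, per the submitters' processing notes, where no version is stated. In each column the mean signal, with 2% of probe sets trimmed at each end, was 100.0, so a change shared by most transcripts would not show. Of 22810 probe sets, 64 controls were left out.

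Names came from the platform annotation, updated through a RefSeq gene table (TAIR10.1) used for names alone: 13513 probe sets had 1 gene, 503 several, and 8730 are unnamed here. Signals below the 40th percentile of an array were raised to it, and log2 differences were taken. With 1 array per group, no test across probe sets has a residual, and the number of arrays limits the precision. The counting step was checked on simulated data with known changes. These changes were well past 2-fold and lay in probe sets well above the median. Recovery of changes near the cut or the floor was not checked. Members and gene lists were chosen with earlier results of these data known. Named genes were the 4 members, the other measured expansins, the 4 probe sets most like each member, and up to 4 genes per list with the largest span. XTH16 was named besides these, for being highest in zer and lowest in man. Alternatives were other scalings, floors, filters and controls. Python 3.11.15, numpy 2.4.6, pandas 2.3.3 and scipy 1.17.1 were used. Sequences were not used here.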

Additional observations from a re-analysis of the deposited data

How the results depend on the processing

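Differences of EXPA7, EXPA18, EXPA8 and EXPA15 were recomputed after quantile normalization, with equal medians, with a floor at the 20th percentile and with log2(signal + 16). Of 192 such values for 48 differences, 191 kept their sign and 0 moved by more than the standard deviation of all probe sets; the exception in sign was EXPA8 in OMG against wat, at -0.02 and 0.05 with equal medians. EXPA8 in zer against wat ran from 1.35 to 1.58 and in glc against zer from -1.15 to -1.32 over their alternatives. EXPA15 in man against wat ran from -0.78 to -1.16, and it was under 2-fold with the median of the other 4 arrays as control (-0.78). Of 52 values with another control, 39 kept their sign. With wat and zer averaged as control, EXPA8 became -0.53 in glc, -0.79 in OMG, -0.47 in DOG and -0.85 in man, as its high zer signal enters that mean. With the mean of wat and man, EXPA15 became 0.53 in zer (0.52 with the median of 4 arrays), 0.34 in glc (0.34), -0.05 in OMG (-0.25) and 0.059 in DOG (-0.086). With the median of 4 arrays, EXPA8 was -0.29 in OMG and EXPA18 -0.18 in DOG.

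Counts of probe sets 2-fold from wat depended on the filter and the floor. With the filter on both arrays they were 130 (zer), 3 (OMG), 8 (DOG) and 26 (man), beside 202, 18, 26 and 48. With the 20th percentile floor they were 45 (OMG), 45 (DOG) and 75 (man). With log2(signal + 16) they were 129 (zer), 192 (glc, beside 291), 15 (DOG) and 24 (man).

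The span of EXPA7 was 0.48 with log2(signal + 16), beside 0.70. Leaving out each array in turn, an alternative chosen after seeing the data, gave spans of 0.39 to 0.70 for EXPA7, 0.27 to 0.38 for EXPA18, 0.38 to 1.62 for EXPA8 and 0.63 to 1.16 for EXPA15. By Spearman correlation the lowest of the 4 values for EXPA8 was 0.771. No paired analysis was possible because each group had 1 array. Signals of EXPA7 and EXPA18 near the floor limit what can be read from them.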
